A study of Mus musculus with 4 samples.

Results

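The regions described here are the long m6A sites of mouse heart: the intervals of 2000 bp or more in 2 deposited lists of N6-methyladenosine (m6A) sites in mRNAs. The Abro1 knockout list held 877 such sites among 10388, in 849 genes, and the wild-type list 1003 among 10814, in 972 genes. They were chosen by their deposited length alone. Lengths are therefore given as a description, without a test. The lists came from hearts of Abro1 knockout mice and of wild-type mice, both on a C57BL/6 background. Abro1 (Abraxas2) holds together a deubiquitinase complex of the cytoplasm. Each list was called by the authors from 1 anti-m6A immunoprecipitate set against 1 input library, so the 4 libraries give no replicate of either genotype. The labels do not give the age or sex of the mice, how many hearts went into a library or which part of the gene was removed. All differences below are thus differences between 2 lists, with no spread between animals. Read counts were not used here, so the depth behind a site is unknown. Coordinates are in mm10 and 1-based.

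m6A is laid down on mRNA while it is being made, by a writer complex built around METTL3 and METTL14, mostly in a short sequence context centred on the bases GAC. It is known to be dense around stop codons, in 3′ untranslated regions and in unusually long internal exons, and sparse close to splice junctions, where exon junction complexes keep the writer away. Antibody pull-down of RNA fragments resolves single adenosines poorly, so one long interval can hold many methylated bases, and the list does not say how many. A site of the lists is an interval on the genome, assigned to 1 transcript and 1 gene. As a look at the tissue, 3 of 10 cardiomyocyte markers had a site in each list, as did 3 of 5 mural and 1 of 5 macrophage markers. Sites were found in 4 of 6 endothelial, 2 of 7 fibroblast and 1 of 3 erythroid markers in the knockout list, against 3 of 6, 4 of 7 and 0 of 3, in that order, in the wild-type list. Of the markers, the endothelial cadherin Cdh5 and the mural proteoglycan Cspg4 had long sites, in both lists. A list of sites gives no expression level, so it does not show how much RNA of a cell type was present.

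Some long sites matched a gene from its first to its last annotated base, and the boundaries of a few are shown here because their edges coincide with annotated gene ends. In each line the 30 bases before the gene's first base are in lower case, and the first 30 bases of the gene, which lie inside the site, are in capitals (RefSeq, GRCm38.p6, 5′ to 3′). The sites of Kcna5 and Dolk matched the whole gene in both lists, those of Hnrnpa0 and Gas1 in the knockout list only and that of Hps6 in the wild-type list only. The other list still held a site at each, over 96.9% of the span of Gas1 and 97.9% of that of Hps6. The wild-type Hnrnpa0 site had 1780 bp, against 2678 bp in the knockout list. The lines give Kcna5, a voltage-gated potassium channel (minus strand, chr6:126535526-126535585), and Dolk, the dolichol kinase of protein glycosylation (minus strand, chr2:30286325-30286384). They also give Hnrnpa0, an RNA-binding protein (minus strand, chr13:58128527-58128586), and Gas1, a membrane-anchored co-receptor of hedgehog ligands (minus strand, chr13:60177506-60177565). The last line gives Hps6, a subunit of a complex for lysosome-related organelles (plus strand, chr19:46003448-46003507).
Kcna5: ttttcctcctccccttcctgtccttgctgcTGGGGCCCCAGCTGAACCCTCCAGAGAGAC
Dolk: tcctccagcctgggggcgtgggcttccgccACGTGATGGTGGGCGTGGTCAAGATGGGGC
Hnrnpa0: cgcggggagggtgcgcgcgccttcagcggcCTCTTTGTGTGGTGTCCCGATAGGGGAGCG
Gas1: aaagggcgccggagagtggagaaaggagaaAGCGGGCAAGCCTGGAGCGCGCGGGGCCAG
Hps6: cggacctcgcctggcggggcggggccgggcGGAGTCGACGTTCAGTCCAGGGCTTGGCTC

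One knockout site enclosed a cluster of microRNA hairpins, and mature sequences from it are shown because they identify what lies inside. The site was assigned to 2010111I01Rik on the plus strand (chr13:63300480-63302877). The lines give the 5 mature arms that the RefSeq table (GRCm38.p6) lists on the strand of the site, which need not be every arm of the cluster, with the seed (bases 2 to 8), which pairs with target mRNAs, in capitals.
mmu-miR-23b-5p: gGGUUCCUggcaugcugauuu
mmu-miR-27b-5p: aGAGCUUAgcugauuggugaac
mmu-miR-27b-3p: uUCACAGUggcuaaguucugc
mmu-miR-24-1-5p: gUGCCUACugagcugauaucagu
mmu-miR-24-3p: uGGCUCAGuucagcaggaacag
The seeds of the arms shown were all different.

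By the rule that chose them, long sites hold more of the listed bases than of the listed sites. They made up 8.44% of the knockout sites and 35.1% of all bases in knockout sites, and 9.28% of the wild-type sites and 36.5% of all bases in wild-type sites. Their median length was 2720 bp in the knockout list (quartiles 2295 and 3394) and 2679 bp in the wild-type list (2292 and 3328). At the threshold the lists ran on without a gap. Just inside stood Ubn2, Taf8 and Stx11 at 2001 bp in the knockout list, and Tardbp at 2002 bp and Taf8 and Alpk1 at 2001 bp in the wild-type list. Just outside stood Bhlhe40 (1999 bp) and D8Ertd82e (1995) in the knockout list, and Zfp90 (1998), Mkl2 (1994) and C3ar1 (1994) in the wild-type list. The knockout sites of Bhlhe40 and D8Ertd82e each overlapped a wild-type site that was long, of 2306 bp for Bhlhe40 and 2206 bp for D8Ertd82e.

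**Figure D1:**
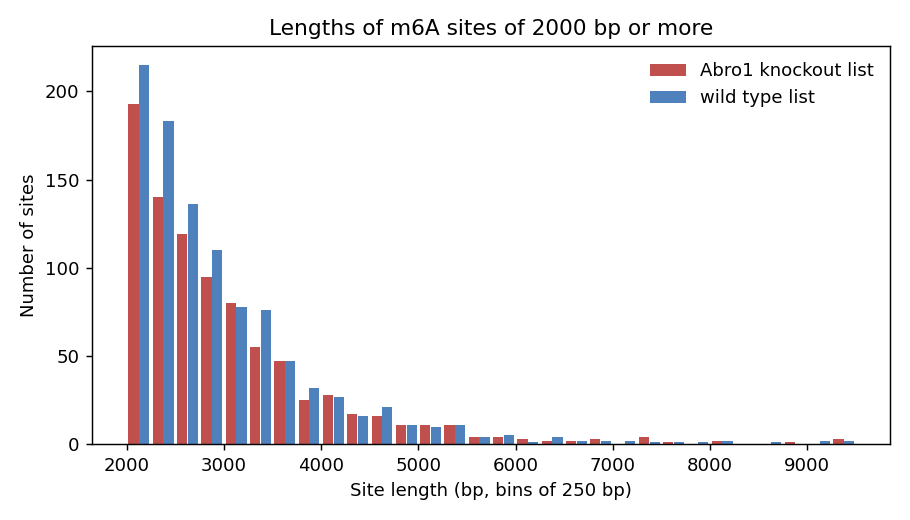
Number of sites (y axis) by length in bins of 250 bp (x axis) for sites of 2000 bp or more, with the Abro1 knockout list in red and the wild-type list in blue. Numbers fall with length in both lists, and the longest sites reach 9368 bp in the knockout list and 9354 bp in the wild-type list.

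The longest sites lay in genes of very large proteins, several of them structural proteins of heart muscle. Cmya5, a costamere and Z-disc protein also called myospryn, had a site of 9354 bp with the same edges in both lists (minus strand, chr13:93089120-93098473), with a fold enrichment of 13.8 in the knockout list and 15.1 in the wild-type list. The fold enrichment is the authors' linear ratio of immunoprecipitate over input for that site. Xirp2, an actin-binding repeat protein of the intercalated disc, had a site of 9265 bp, again with the same edges in both lists (plus strand, chr2:67507909-67517173), with folds of 5.07 and 6.08 in the knockout and the wild-type list. The cytolinker plectin (Plec) had the same 7412 bp in both lists, with folds of 30.2 in the knockout list and 36.4 in the wild-type list. Map1a, a microtubule-associated protein (8104 bp), and Spen, a transcriptional repressor (8020 bp), also had the same interval in both lists. Map1a had a fold of 21.5 in the knockout list and 41.2 in the wild-type list, and Spen had 23.4 and 26.1 in that order. These 5 intervals were thus base for base alike, while the fold was the lower in the knockout list at each. Identical intervals were not particular to them, at 56.8% of all knockout and 54.6% of all wild-type sites.

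Other members of the 10 longest differed in extent. Zfp292, a zinc finger protein, reached 7429 bp and 7556 bp in the knockout and the wild-type list, and the Wnt scaffold Apc 7321 bp and 7214 bp. Nrip1, a corepressor of nuclear receptors, had 7544 bp in the knockout list (chr16:76287472-76295015, fold 9.67) and 5904 bp in the wild-type list (fold 16.0). The longest knockout site of all, 9368 bp in the kinesin-like gene Stard9 (plus strand, chr2:120695744-120705111), overlapped no wild-type site, and its score was low. The score, as the authors give it, is the log10 of the caller's p multiplied by minus 10. It starts at 50 in these lists and stands at exactly 3100 for many strong sites. Stard9 had a score of 73.0 and a fold of 5.84, and the nearest wild-type site on its strand lay 1938 bp away. In the wild-type list, Sh3pxd2a, an adaptor of podosomes, had 8729 bp without a knockout counterpart (minus strand, chr19:47260208-47268936, fold 11.6, score 293).

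Long sites had higher scores than shorter ones in both lists, and somewhat higher folds. The median score was 643 for long and 249 for shorter knockout sites, and 663 for long and 243 for shorter wild-type sites. Scores of 3100 or more were held by 19.2% of long and 7.80% of shorter knockout sites, and by 19.5% of long and 7.68% of shorter wild-type sites. The median fold was 9.04 (quartiles 6.33 and 13.6) for long and 7.84 for shorter knockout sites. It was 10.9 (7.68 and 16.8) for long and 9.21 for shorter wild-type sites. Score and length come from the same call and are not independent, so the contrast is a description. The highest folds of all were not at long sites, which reached 128 in the knockout list and 114 in the wild-type list, whereas shorter sites reached 1099 and 1286 in the knockout and the wild-type list. The deposited false discovery rate was 100% for all 877 long knockout sites. It was below 100% for 342 of the long wild-type sites (34.1%), with a minimum of 83.3%. Over whole lists, it was below 100% for 3 of 10388 knockout sites and for 17.1% of wild-type sites.

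The 5 long knockout sites with the largest fold were in Zfhx2, Rrbp1, Ahnak2, Phf3 and Amer1. Zfhx2, a zinc finger homeobox gene, had the same interval of 3477 bp in both lists (minus strand, chr14:55063805-55067281), with a fold of 128 in the knockout list and 35.4 in the wild-type list. Rrbp1, which binds ribosomes at the endoplasmic reticulum membrane, had the same 2119 bp in both lists, with folds of 70.5 and 85.2 in the knockout and the wild-type list. Ahnak2, a giant scaffold protein, had 61.9 in the knockout list and 43.55 in the wild-type list, and Amer1, a membrane anchor of Apc, had 52.6 and 53.9 in that order. Phf3, a regulator of RNA polymerase II, had 53.2 in the knockout list and 59.0 in the wild-type list. The wild-type list was led by Irf2bp1, a transcriptional corepressor (2699 bp, chr7:19004065-19006763), with a fold of 48.3 in the knockout list and 114 in the wild-type list over the same interval. Next came Rrbp1, followed by Sec62 of the protein translocation machinery (56.9 in the knockout list, 71.5 in the wild-type list), the transcription factor Bcl11a (42.95 and 71.3) and Fam43a (43.25 and 70.9). These sites were chosen by their fold in one list, so their pairs of values are no comparison of genotypes.

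Most long sites lay towards the 3′ end of their gene. Of the long sites placed within the annotated span of their gene, 57.1% of 862 knockout sites (95% interval 53.7 to 60.4) and 58.7% of 984 wild-type sites (55.6 to 61.8) had their midpoint in the last 20% of that span. Over all sites these shares were 34.8% in the knockout list and 35.7% in the wild-type list. The first 20% of the span held 5.68% of long and 28.0% of shorter knockout sites, and 5.59% of long and 27.5% of shorter wild-type sites. Intervals are exact binomial ones, for counting error alone, with each site taken as independent. They did not overlap between long and shorter sites for either end of the gene in either list. The share in the last 20% had already reached 58.1% in the knockout list and 58.5% in the wild-type list for sites of 1000 to 2000 bp, and it did not grow with length above that. For sites of 200 to 500 bp it was 21.5% and 20.8% in the knockout and the wild-type list. Introns are part of a gene's span, so a place in it is not a place in the mature transcript, and exons, coding sequence and untranslated regions were not placed.

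**Figure D2:**
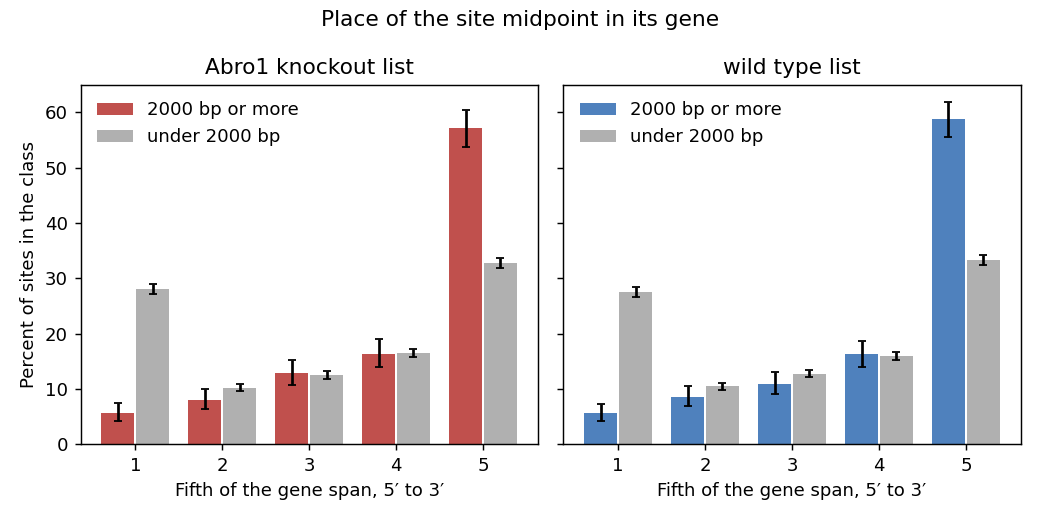
Percent of sites (y axis) with their midpoint in each of 5 equal parts of the gene span, 5′ end at the left (x axis), for the Abro1 knockout list (left) and the wild-type list (right). Coloured bars are sites of 2000 bp or more, grey bars shorter sites, and error bars exact 95% binomial intervals. The share of long sites grows towards the last part, which holds 57.1% of them in the knockout list and 58.7% in the wild-type list, and the peak of shorter sites in the first part is absent among them.

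A minority of long sites had an edge exactly on an edge of the gene, at the 3′ end more often than shorter sites. A 3′ edge exactly at the last annotated base of the gene was found for 125 of the 874 matched long knockout sites (14.3%) and 140 of the 999 matched long wild-type sites (14.0%), against 3.77% and 3.87% of shorter sites in the knockout and the wild-type list. A 5′ edge exactly at the first annotated base was found for 73 long knockout sites (8.35%) and 70 long wild-type sites (7.01%), close to the 6.89% and 6.27% of shorter sites in the same order. Sites with a length of at least 90% of the gene span numbered 34 in the knockout list and 30 in the wild-type list. They lay in 38 genes, of which 26 were in both. Only length was compared with the span, so such a site need not cover the gene. One of the 38, Snord88a, is a small nucleolar RNA with a span of 72 bp under a site of 2293 bp in the knockout list and 2275 bp in the wild-type list, so its match says nothing of a whole mRNA. Besides Kcna5 (3005 bp, 100% of the span in both lists), they included the transcription factor genes Jun, Maf and Cebpa, the small GTPases Rhob and Arf6, thrombomodulin (Thbd) and the heat shock gene Hspa1a. Cebpa reached 90% in the knockout list only, where its site had 2449 bp and a fold of 8.86, against 2037 bp and a 38.4-fold enrichment in the wild-type list. The sites of Trim56 and Maf ran past the RefSeq span of their gene, which is 5177 bp for Trim56 and 3642 bp for Maf. The midpoint of the wild-type Trim56 site lay beyond the end of that span, so it is counted here by length alone. Many of these genes, Jun and Rhob among them, are known to have no intron. Hspa1a has a near-identical neighbour, Hspa1b, so its values are uncertain. Both edges met both ends of the gene at 10 knockout sites and 5 wild-type sites. The letters GGAC, in the transcribed direction only, were looked for in the first 50 transcribed bases of the long sites that began at a gene's first base and had a RefSeq window starting there, 53 in the knockout list and 46 in the wild-type list. They occurred in 12 of the knockout windows (22.6%) and 12 of the wild-type windows (26.1%). The share was 18.9% in all 32851 gene-start windows of the RefSeq table. The letters describe these windows and do not mark a methylated base.

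The next question was how far the lists shared their long sites. Of the long knockout sites, 821 (93.6%, interval 91.8 to 95.1) overlapped a wild-type site by 1 bp or more on the same strand. Likewise, of the long wild-type sites 850 (84.7%, 82.4 to 86.9) overlapped a knockout site. No overlap was found for 56 long knockout sites (6.39%) and 153 long wild-type sites (15.3%), against 19.6% of all knockout sites and 22.8% of all wild-type sites. A long interval meets another more readily by its length alone. By bases, 89.96% of the bases in long knockout sites and 80.8% of the bases in long wild-type sites lay under a site of the other list. A partner that was itself long was found for 754 knockout sites (86.0%) and 753 wild-type sites (75.1%). Of the remaining overlaps, 67 long knockout sites and 97 long wild-type sites met shorter sites only.

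Within classes of similar score, long and shorter sites differed at low scores in the knockout list. At scores of 50 to 100, 21.8% of 78 long knockout sites (interval 13.2 to 32.6) and 51.5% of 2242 shorter knockout sites (49.4 to 53.6) had no wild-type counterpart. In the wild-type list the shares at these scores were 52.5% of 99 long sites (42.2 to 62.7) and 53.8% of 2375 shorter sites (51.8 to 55.8). At scores of 100 to 300 the shares were 13.8% for long and 21.8% for shorter knockout sites, and 32.2% for long and 26.0% for shorter wild-type sites. At scores of 1000 or more, 2 of 341 long knockout sites (0.587%) and 8 of 414 long wild-type sites (1.93%) had no counterpart. Among shorter sites of such scores the shares were 2.47% in the knockout list and 2.98% in the wild-type list. The intervals of long and shorter sites overlapped there in both lists. Below a score of 300, the intervals of long and shorter sites did not overlap in the knockout list, and overlapped in the wild-type list.

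**Figure D3:**
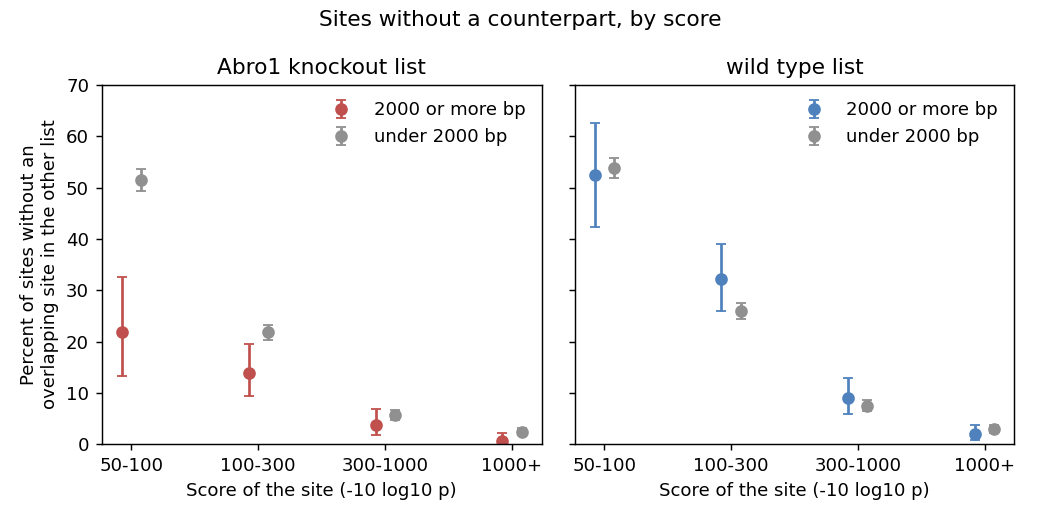
Percent of sites that overlap no site of the other list (y axis) by class of the authors' score (x axis), for the Abro1 knockout list (left) and the wild-type list (right). Points are shares, coloured for sites of 2000 bp or more and grey for shorter sites, and bars are exact 95% binomial intervals. Long knockout sites lie below shorter ones at low scores (21.8% against 51.5% at scores of 50 to 100), and long wild-type sites do not (52.5% against 53.8%).

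Where both lists held a long site, the 5′ edge was nearly always the same and the 3′ edge often was not. There were 743 overlaps in which a long knockout site and a long wild-type site met only each other. The 5′ edge was identical in 687 of these (92.5%) and the 3′ edge in 336 (45.2%). Among 7404 such pairs of shorter sites the shares were 91.6% and 80.9%. Whether site edges were cut at annotated exon edges is not given in the sources used here and was not tested. Both edges were identical in 313 long pairs, with the 5′ edge alone in 374, the 3′ edge alone in 23 and neither in 33. The 313 intervals were 35.7% of long knockout sites and 31.2% of long wild-type sites, against 56.8% of all knockout and 54.6% of all wild-type sites. In the last 20% of the gene, 94.6% of 409 long pairs shared the 5′ edge and 37.9% the 3′ edge. In the rest of the gene span, 89.4% of 321 long pairs shared the 5′ edge and 54.8% the 3′ edge. Among these 743 pairs neither list was the longer as a rule, with the knockout site longer in 211 and the wild-type site in 219. Where their lengths differed, the median difference was 121.5 bp, of the order of the 150 bases of a read. Over all 890 pairs with a long site in either list, the knockout site was longer in 270 and the wild-type site in 307.

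**Figure D4:**
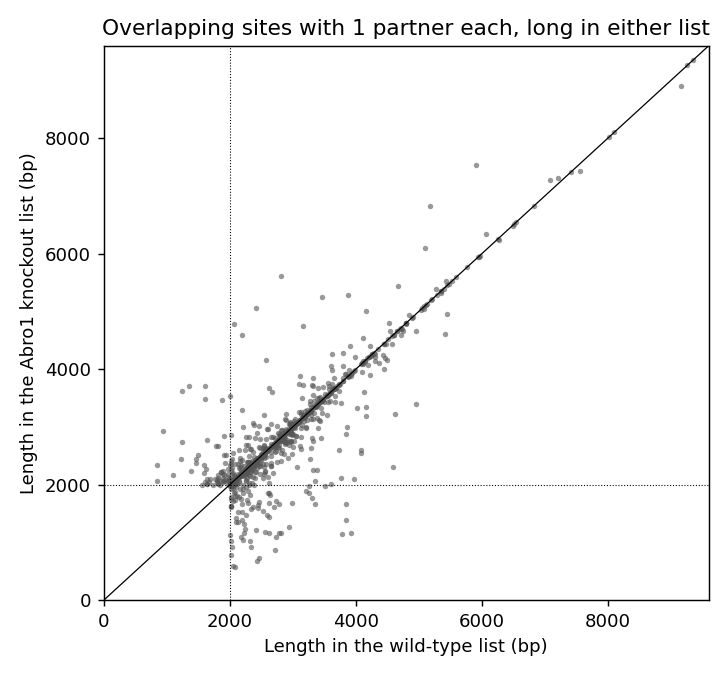
Length in the Abro1 knockout list (y axis, bp) against length in the wild-type list (x axis, bp) for the 890 overlaps of 1 site with 1 site in which either is of 2000 bp or more; the diagonal marks equal length and dotted lines the length of 2000 bp. Most points lie on or close to the diagonal, 313 of them exactly, and both triangles beside it are filled.

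Some pairs differed by more than 2000 bp at one edge, and the 3 largest differences in each direction were looked up after the values were seen. Cbfa2t3, a transcriptional corepressor, had 5612 bp in the knockout list and 2818 bp in the wild-type list. Ttc28 had 4789 bp in the knockout list and 2066 bp in the wild-type list, and Pdzd8, a lipid transfer protein of membrane contacts, had 5060 bp and 2421 bp in that order. In the other direction, Tmx4, a membrane thioredoxin, had 1164 bp in the knockout list and 3922 bp in the wild-type list, Gm14436 had 1149 bp and 3778 bp, and the calcium-responsive transcription factor Nfatc2 1391 bp and 3840 bp, each in the same order. The folds of these 6 pairs differed less than their lengths. Cbfa2t3 had 14.2 in the knockout list and 15.8 in the wild-type list, Tmx4 had 25.1 and 24.9 in that order, and Gm14436, the widest apart, had 7.01 and 9.72. Tmx4 had a score of 3100 in the knockout list and 239 in the wild-type list.

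A few long sites of one list appeared as 2 sites in the other. This was so for 13 knockout sites and 15 wild-type sites. The stretch between the pieces was short, at a median of 123 bp for the knockout sites (2 to 272 bp) and 119 bp for the wild-type sites. In the wild-type list it ran from 26 to 2287 bp, with 13 of 15 below 300 bp. Trim56, a ubiquitin ligase of innate immunity, had 2 knockout sites of 2115 bp (fold 20.7) and 6772 bp (fold 14.5), separated by 131 bp, where the wild-type list had 1 site of 9014 bp (minus strand, chr5:137105648-137114661, fold 29.2). Gm1966 had 2 knockout sites of 1197 and 3962 bp with 2287 bp between them, in place of 1 wild-type site of 7773 bp. Card6 had 2 knockout sites of 571 and 2869 bp in place of 1 wild-type site of 3615 bp. The other way round, Eppk1, a plakin repeat protein, had 1 knockout site of 4210 bp and 2 wild-type sites of 1970 and 1954 bp with 2 bp between them. Synm, the intermediate filament protein synemin, had 1 knockout site of 4190 bp (fold 23.8) and 2 wild-type sites of 2645 bp (fold 24.2) and 1347 bp (fold 11.4), 56 bp apart. The knockout pieces covered 98.5% of the wild-type Trim56 site, so the number of sites of a gene can differ between the lists where nearly the same bases are covered.

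**Figure D5:**
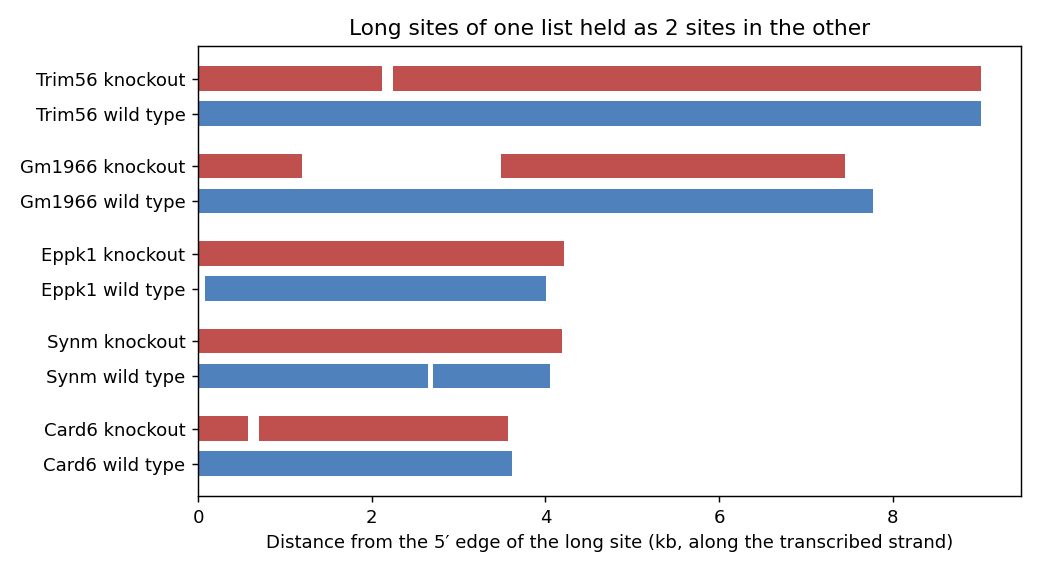
The 5 longest sites that one list holds whole and the other as 2 sites, drawn to scale by distance from the 5′ edge of the long site along the transcribed strand (x axis, kb), with the Abro1 knockout list (red) above the wild-type list (blue) for each gene. The pieces are separated by 131 bp in Trim56, 2287 bp in Gm1966, 56 bp in Synm and 127 bp in Card6; the 2 bp between the Eppk1 pieces are too narrow to be seen.

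At the 313 intervals that were long and identical in both lists, the fold could be set side by side over the same bases. The median fold was 9.16 in the knockout list and 11.1 in the wild-type list, and the median of the knockout over wild-type ratio was 0.787 (quartiles 0.684 and 0.915). The ratio was above 1 at 43 of them (13.7%). At the 5591 shorter identical intervals the median ratio was 0.836 (0.684 and 1.04), and 28.2% were above 1. A lower knockout fold was thus common to identical intervals of all lengths. The scaling between the libraries is not given in the sources used here, so the ratio does not measure a change in methylation. The lowest and highest ratios were looked up after the values were seen. The lowest was at Rreb1, a zinc finger transcription factor of Ras signalling (chr13:37948643-37952005, 3363 bp), with fold 8.11 and score 72.9 in the knockout list, and fold 35.15 and score 3100 in the wild-type list. The highest was 3.63, at the Zfhx2 site given above. Next to it stood Nckap5l (folds of 12.5 and 5.81 in the knockout and the wild-type list) and the centrosomal linker gene Cep250 (50.4 and 27.2).

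The 56 long knockout sites without a wild-type counterpart lay in 56 genes, 15 of which had another site in the wild-type list. Their median score was 131, and 2 had a score of 1000 or more. Mgat2, an enzyme that branches N-glycans, had the highest (score 1149, fold 7.99, plus strand, chr12:69184158-69186531), and no site of this gene was in the wild-type list. Kmt2e, a chromatin regulator of the MLL family, followed (score 1065, fold 12.9, plus strand, chr5:23501524-23504235). It had 6 knockout and 4 wild-type sites, and the nearest wild-type site lay 1931 bp away. Further chromatin genes were Asxl2, a Polycomb-associated factor (4086 bp, score 931, fold 6.53), and Nsd1, a histone methyltransferase (2594 bp, score 795, fold 5.78). Asxl2 had no wild-type site, whereas Nsd1 had 2 elsewhere in the gene. Zfp36l2, which speeds the decay of AU-rich mRNAs (score 685, fold 4.25), and Ppp1r3a, which brings protein phosphatase 1 to glycogen in muscle (score 528, fold 3.52), had no wild-type site. Pcdhga11, of the gamma protocadherin cluster (score 752, fold 10.1), has close paralogs beside it, so its assignment is uncertain.

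The knockout site of 2010111I01Rik also had no wild-type counterpart (2398 bp, fold 8.82, score 785). The nearest wild-type site on its strand lay 284516 bp away, and the wild-type list had 1 site of this gene. It began 4 bp before the hairpin of Mir23b (63300484 to 63300557) and enclosed the hairpins of Mir27b (63300712 to 63300784) and Mir24-1 (63301208 to 63301275), all on the plus strand. This cluster is transcribed as one primary transcript and is known from vascular cells, and m6A on primary transcripts is known to favour their processing into microRNAs. The site was assigned to the host gene's mRNA, and whether the pulled-down fragments came from that mRNA or from the primary microRNA transcript was not tested. Mir3074-1 lay inside the same interval on the opposite strand. In all, long knockout sites enclosed 7 hairpins and long wild-type sites 5, of which 5 and 3, in that order, were on the strand of the site. Mir5130 lay within the sites of Kctd12 in both lists (5445 bp in the knockout list, 4671 bp in the wild-type list), and Mir8115 within those of the ATP-gated channel P2rx7 (2763 and 2862 bp in the same order).

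The 153 long wild-type sites without a knockout counterpart lay in 152 genes. For 97 of the sites the gene had no site at all in the knockout list. These were 9.67% of long wild-type sites, near the 9.55% of all wild-type sites. The median score of the 153 sites was 140, and 8 had a score of 1000 or more. Lrtm1 had the highest (4578 bp, score 2309, fold 15.8, plus strand, chr14:29027324-29031901). Perm1, a muscle regulator of mitochondrial genes that acts with PGC-1 and ERR proteins, came next (2469 bp, score 2200, fold 4.97, plus strand, chr4:156216717-156219185). The nearest knockout site was 741 bp from it. Pik3r1, the regulatory subunit of phosphoinositide 3-kinase, had 2205 bp (score 1544, fold 12.3), with 3 other sites of the gene in the knockout list. Marcks, a membrane substrate of protein kinase C (score 1389, fold 9.19), Apc2, a relative of Apc (6350 bp, score 1192, fold 10.1), the zinc finger gene Zfp518b (score 1068, fold 13.2) and the deubiquitinase Otud4 (score 1774) had no site in the knockout list. Tet3, a dioxygenase that oxidises 5-methylcytosine in DNA, had 3689 bp (score 1001, fold 14.97), with 1 knockout site of 2158 bp elsewhere in the gene. Absence from a list is the authors' call at an unknown depth and does not show an unmethylated RNA.

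By gene, 732 genes had a long site in both lists, which is 86.2% of the genes with a long knockout site and 75.3% of those with a long wild-type site. In the knockout list only there were 117, of which 76 had shorter sites in the wild-type list and 41 none. In the wild-type list only there were 240, of which 144 had shorter sites in the knockout list and 96 none. Matching shares by gene over all genes with a site are not given here, so these gene counts have no background. Shares by site need not equal shares by gene. Counted by sites, 4.68% of long knockout sites lay in a gene without a wild-type site, against 8.02% of all knockout sites. For wild-type sites the shares without a knockout site in the gene were 9.67% of long and 9.55% of all sites. The long site was the gene's only site for 52.8% of the 849 genes in the knockout list and 52.2% of the 972 in the wild-type list. Over all genes with a site, 59.9% in the knockout list and 58.7% in the wild-type list had a single site. Genes with 2 or more long sites numbered 25 in the knockout list and 28 in the wild-type list. Fat4, an atypical cadherin, had 3 in each, of 5195, 4350 and 2760 bp in the knockout list and 5195, 4350 and 2962 bp in the wild-type list. Zfhx3, a transcription factor gene linked to atrial fibrillation, also had 3 in each, of 2768, 5454 and 2950 bp in the knockout list and 2768, 5454 and 2924 bp in the wild-type list. Map1b, a microtubule-associated protein, Dst and Igsf10 had 2 long sites in each list, and Trim56 had the 2 knockout pieces given above against 1 wild-type site. The dystonin gene Dst had 2703 and 5292 bp in both lists.

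Long sites were unevenly spread over gene families. Of the genes with any site, 14.8% in the knockout list and 16.5% in the wild-type list had a long one. Among genes with a Zfp symbol, mostly zinc finger proteins whose finger arrays are encoded in one large last exon, the shares were 85 of 179 (47.5%) in the knockout list and 101 of 203 (49.8%) in the wild-type list. Among protocadherins (Pcdh symbols), whose extracellular part is encoded in one large exon, they were 17 of 21 in the knockout list and 21 of 24 in the wild-type list. Among solute carriers (Slc symbols), built from many small exons, they were 3 of 66 and 5 of 73 in the knockout and the wild-type list. In the other families counted, the shares ran from 2 of 28 (Trim symbols) to 4 of 5 (Fzd symbols) in the knockout list. In the wild-type list they ran from 3 of 31 (Rnf symbols) to 4 of 5 (Fzd symbols). Exons were not used here, so a link between exon size and long sites was not tested. The families were picked after the values were seen. Zfp and Pcdh genes include close paralogs whose sites could be assigned to the wrong copy.

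In 13 gene lists the share of genes with a long site among those with any site ran from 1 of 12 (dyad and calcium genes) to 13 of 25 (Wnt and Notch genes) in the knockout list, and from 3 of 30 (cardiac transcription factors) to 19 of 36 (guidance and adhesion genes) in the wild-type list. Among structural scaffolds of the sarcomere and costamere, 13 of 31 genes with a knockout site (41.9%) and 14 of 29 with a wild-type site (48.3%) had a long one. After Cmya5, Xirp2 and Plec came Macf1, a linker of microtubules and actin, with 5361 bp in both lists (folds of 5.19 and 6.24 in the knockout and the wild-type list). Of the 3 cardiomyocyte markers with a site in each list, 0 had a long one, a count too small to set against the background. Of the dyad and calcium genes with a site, 1 of 12 in the knockout list and 2 of 10 in the wild-type list had a long one, which is near the share over all genes. Hrc, the histidine-rich calcium-binding protein of the sarcoplasmic reticulum, had 2106 bp in both lists, with folds of 25.8 and 42.5 in the knockout and the wild-type list. Cacnb2, a calcium channel subunit, had a long site in the wild-type list only (2321 bp, fold 35.8). The knockout list held an overlapping site of 1024 bp with the same 5′ edge (fold 28.0, score 3100). Of the ion channel genes, 7 of 22 in the knockout list and 9 of 26 in the wild-type list had a long site. They included the inward rectifier Kcnj12 with 4140 bp in both lists (folds 12.8 and 13.3 in the knockout and the wild-type list) and the background potassium channel Kcnk3 with 3380 bp in both (9.49 and 12.7). The muscarinic-gated channel Kcnj3 had 3245 bp in the knockout list and 3335 bp in the wild-type list.

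Chromatin modifiers had a long site in 26 of 56 genes in the knockout list (46.4%) and 25 of 55 in the wild-type list (45.5%). Setd2, the histone H3K36 methyltransferase, had 4286 bp in both lists, Kmt2a 4237 bp in both, and the acetyltransferase Kat6a 4536 bp in the knockout list and 4113 bp in the wild-type list. Ash1l had a long site in the wild-type list only, of 4558 bp and with a low score of 203. Cardiac transcription factors had long sites in 3 of 29 genes in the knockout list and 3 of 30 in the wild-type list, near the share over all genes. These were the same genes in both lists, Heyl, Zfpm2 and Tbx5. Tbx5, a factor of atrial and conduction identity, had 2306 bp in the knockout list (fold 10.3) and 2300 bp in the wild-type list (fold 15.1). Heyl, a Notch target, had 3913 bp and 3852 bp in the knockout and the wild-type list. Immediate early and short-lived transcripts had a long site in 10 of 25 genes in the knockout list and 9 of 24 in the wild-type list. Jun had 3189 bp in the knockout list and 3168 bp in the wild-type list, Ier5 2572 and 2367 bp in that order, and the decay factor Zfp36l1 2789 bp in both. Mafk had a long site of 2569 bp in the wild-type list only.

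Of the Wnt and Notch genes, 13 of 25 in the knockout list and 13 of 27 in the wild-type list had a long site. Notch2 had 4262 bp in the knockout list and 4307 bp in the wild-type list, and the receptor gene Fzd1 had 4276 bp in the knockout list (fold 4.23, score 104) and no site in the wild-type list. Guidance and adhesion genes had long sites in 18 of 36 genes in the knockout list and 19 of 36 in the wild-type list. Pcdh17 (5091 bp) and Pcdh7 (4258 bp) had the same length in both lists, and Celsr1 had 3452 bp in the knockout list and 3596 bp in the wild-type list. Insulin and MAP kinase genes had long sites in 7 of 30 genes in the knockout list (23.3%) and 12 of 31 in the wild-type list (38.7%). Over all genes with a site the shares were 14.8% and 16.5% in that order. Of those long in the wild-type list only, Dusp8 and Rptor had overlapping knockout sites of 1886 and 1094 bp. Igf1r, Pik3ca and Pik3r1 had no overlapping knockout site. The insulin receptor substrates Irs1 (4663 bp) and Irs2 (3989 bp) had the same length in both lists. The fold of Irs2 was 17.5 in the knockout list and 35.8 in the wild-type list. Spry4 had 4064 bp in the knockout list and 3609 bp in the wild-type list, and Foxk1 3126 and 3221 bp in that order. TGF-beta and BMP genes had 5 of 20 in the knockout list and 4 of 24 in the wild-type list, led by the transcription factor genes Zeb1 (2894 and 2845 bp in the knockout and the wild-type list) and Zeb2 (2409 and 2026 bp). Smad7 had 2204 bp in both lists, and Ltbp1 2175 and 2062 bp in the knockout and the wild-type list.

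RNA regulators had long sites in 9 of 28 genes in the knockout list and 9 of 27 in the wild-type list, in the same 9 genes. Son, a splicing cofactor with a very large exon, had 5970 bp in both lists (folds of 9.28 and 10.9 in the knockout and the wild-type list). Larp1, which controls translation of ribosomal protein mRNAs, had 3476 and 3473 bp in that order, and Nktr 2856 bp in both. Tnrc6c, a scaffold of microRNA silencing, had 1 long site of 2601 bp in the knockout list, and the wild-type list had 2, of 2601 and 2822 bp. Of the m6A machinery, 2 of 13 genes in the knockout list (15.4%) and 2 of 15 in the wild-type list (13.3%) had a long site. These shares were near those over all genes. The 2 genes encode adaptors that bring the writer to its targets, Rbm15 (3199 bp in the knockout list, 3195 bp in the wild-type list) and Rbm15b (3016 bp in both). Deubiquitinases and E3 ligases had a long site in 4 of 36 genes in the knockout list (11.1%) and 5 of 36 in the wild-type list (13.9%), near the background. Fbxo32, the muscle atrophy ligase atrogin-1, had 5283 bp in the knockout list (fold 19.0) and 3878 bp in the wild-type list (fold 24.8). Otud7b had 3612 and 3608 bp in the knockout and the wild-type list, and Usp31 2184 and 2474 bp. The gene lists were written with earlier results of these data known, and their counts describe the lists without a test.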

How the data were processed

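RNA from hearts of Abro1 knockout and wild-type mice was extracted with Trizol, enriched with an m6A kit and sequenced as paired reads of 150 bases, per the labels' protocols. The labels and the design text name different stranded library kits. Per the submitters' processing notes, cutadapt 1.9.3, HISAT2 2.0.4 and the mm10 build were used. Site names begin with MACS; a version of that caller is not given in the sources used here. Each list combines the immunoprecipitate and the input of 1 genotype, per the design text. The deposited values are, per the file headers, a score (minus 10 times the log10 of the p-value), a linear fold ratio, a false discovery rate in percent and a length. The length equalled the deposited end minus the deposited start in every row, so starts are counted from 0 in the files and were moved by 1 base for the 1-based coordinates printed here, and strands came from the deposited interval files. No count of reads is given.

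Overlaps needed at least 1 bp on the same strand. They were computed in Python 3.11.15 (numpy 2.4.6, scipy 1.17.1, pandas 2.3.3), checked with bedtools 2.31.1 and tested on simulated intervals; figures used matplotlib 3.10.9. Of 6660 gene symbols, 6582 matched a RefSeq gene of GRCm38.p6, the assembly of mm10, through gene ID, symbol or older symbol. Genome sequence and exons were not used here. Shares have exact (Clopper-Pearson) 95% intervals. With 1 library per genotype and kind, no test was made. The members and the 13 gene lists were chosen with earlier results of these data known. Genes were named by rule: per list the 10 longest sites, the 5 with the largest fold, the 8 strongest without overlap and 3 sites on each side of the threshold; the 5 longest split sites; up to 6 genes with several long sites; and in each gene list up to 4 members, longest first. Other names are marked as chosen after their values were seen, or complete a group. Alternatives changed the length minimum, the score minimum, the overlap rule, the placing of sites and the matching of genes. Some sites that this rule picks are not reported here.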

Additional observations from a re-analysis of the deposited data

How the results depend on the processing

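Of 36 alternative values, 22 stayed within 1.5 times the count or within the 95% interval of the share. The number of long sites follows its threshold, with 1506 knockout and 1655 wild-type sites at a minimum of 1500 bp and 330 and 359, in that order, at 3000 bp. The share of long sites that overlap the other list was 90.8% in the knockout list at 1500 bp, and 95.5% in the knockout list and 89.4% in the wild-type list at 3000 bp. With a partner of 2000 bp or more required it was 86.0% in the knockout list and 75.1% in the wild-type list, and with a reciprocal overlap of 50% it was 81.8% in the wild-type list. Under each of these rules the share was higher in the knockout list. Placing a site by its 3′ edge put 70.9% of knockout and 72.4% of wild-type long sites in the last 20% of the gene, and placing it by its 5′ edge 47.9% and 49.2% in that order. Limiting the lists to scores of at least 100, ignoring the strand and matching genes by ID left every value within its limits. No paired analysis was possible because each genotype has 1 list without replicate numbers. Depth is unknown, so absence of a site sets no limit on methylation.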
